A study of Mus musculus with 2 samples.

Results

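The replication-dependent histone gene clusters were examined in H3K27ac ChIP-seq peak lists of the embryonic mouse heart at stage E10.5. H3K27ac, acetylation of lysine 27 of histone H3, marks active promoters and enhancers. The members were chosen by position, as called peaks of either list whose midpoint lay in 1 of 3 mm9 windows: chr13:21750001-22150000 (the first Hist1 window), chr13:23450001-23950000 (the second Hist1 window) and chr3:95950001-96150000 (the Hist2 window). These 1.1 Mb held 237 of the 154664 peaks of both lists, 79 of 87572 in the atrioventricular canal (AVC) list and 158 of 67092 in the chamber list. The AVC is the segment between atria and ventricles that gives rise to the atrioventricular node and the valve cushions, and the chambers are the atria and ventricles. Both libraries came from FVB/N embryos of genotype Katushka+ EGFP+. EGFP-positive cells gave the AVC library and Katushka-positive cells the chamber library, 1 library per tissue. Katushka is a far-red and EGFP a green fluorescent protein. The promoters that drive the reporters, and whether embryos were pooled, are not given in the sources used here. Because there was no replicate, no test between tissues was made, every difference below is a description of 2 libraries, and intervals are exact Clopper-Pearson 95% intervals that cover counting error only. The windows had been proposed with the peak counts of these lists in view, so the excess of chamber peaks in them is not independent evidence.

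Replication-dependent histone genes encode the H1 linker histones and the core histones H2A, H2B, H3 and H4 that package newly made DNA. They lie in clusters, are transcribed together during S phase under the coactivator NPAT in a nuclear structure called the histone locus body, and make mRNAs that end in a stem-loop in place of a poly(A) tail. Their output follows the number of cells in S phase, and the AVC myocardium is known to divide more slowly than the chamber myocardium at this stage. Proliferation was not measured here. A peak in sorted cells also cannot tell more acetylation per cell from more cells that carry it.

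No annotation of the mm9 build was used, so no peak was assigned to a gene, and neither the histone label of the windows nor the tissue labels could be checked against gene positions. The gene content is therefore given by neighbour order in RefSeq's GRCm38.p6 annotation. There, 62 protein-coding histone genes fall into 3 runs on chromosomes 13 and 3. The run from H2bc13 to H2bc11 holds 23 of them (1 H1, 7 H2A, 8 H2B, 2 H3 and 5 H4) along with 31 tRNA genes and the genes Zfp184, Pom121l2 and Prss16. The run from H4c8 to H1f1 holds 29 (5 H1, 5 H2A, 6 H2B, 7 H3 and 6 H4) and Hfe, the gene of the hemochromatosis protein. The run from H2ac21 to H2bc18 on chromosome 3 holds 10 (4 H2A, 2 H2B, 3 H3 and 1 H4). The runs were not placed in the mm9 windows, so the windows may also hold genes outside the runs that are not listed here. Peaks, loci and bins of the windows, also those called histone peaks, loci or bins below, may thus lie at tRNA or other genes as well as at histone genes. Many histone genes are near-identical copies, and the treatment of reads matching several copies was not stated in the sources used here.

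The promoters of these genes share sequence elements by family, and 1 stretch per family is printed to show what these elements look like. Promoter windows of 300 bases, from 250 before to 50 after the start, were matched for 57 of the 62 genes in the RefSeq table. Each stretch is the last 150 bases before the annotated start, 5′ to 3′ on the gene's strand, of the first gene of its family on chromosome 13 with the motif there. Capitals mark matches on either strand to AAACACA in H1f5, an H1 linker histone gene, to CCAAT in H2ac13 and H3c10, to ATTTGCAT in H2bc14 and to GGTCCG in H4c11. The coordinates are GRCm38.p6 and were not compared with the mm9 peaks: H1f5 at chr13:21780626-21780775 (minus strand), H2ac13 at chr13:21716262-21716411 (plus), H2bc14 at chr13:21721894-21722043 (plus), H3c10 at chr13:21717478-21717627 (plus) and H4c11 at chr13:21734884-21735033 (plus).
H1f5: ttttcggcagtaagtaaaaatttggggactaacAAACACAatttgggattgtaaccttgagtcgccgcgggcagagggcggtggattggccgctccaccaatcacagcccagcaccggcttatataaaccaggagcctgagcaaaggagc
H2ac13: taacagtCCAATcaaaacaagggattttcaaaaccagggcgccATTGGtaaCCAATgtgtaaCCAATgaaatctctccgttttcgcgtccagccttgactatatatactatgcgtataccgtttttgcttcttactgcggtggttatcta
H2bc14: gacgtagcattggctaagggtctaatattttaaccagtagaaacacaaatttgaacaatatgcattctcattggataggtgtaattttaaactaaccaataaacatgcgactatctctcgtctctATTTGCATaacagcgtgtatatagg
H3c10: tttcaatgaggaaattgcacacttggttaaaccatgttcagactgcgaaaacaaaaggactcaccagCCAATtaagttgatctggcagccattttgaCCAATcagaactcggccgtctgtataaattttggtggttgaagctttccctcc
H4c11: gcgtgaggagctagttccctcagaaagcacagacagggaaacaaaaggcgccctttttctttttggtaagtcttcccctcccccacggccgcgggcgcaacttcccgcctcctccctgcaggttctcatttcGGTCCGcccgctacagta

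The elements divided by family, with exceptions. CCAAT, the box bound by the factor NF-Y, was found on either strand in the 300-base windows of all 6 H1, all 16 H2A, all 14 H2B and all 10 H3 genes with an entry, but in 3 of 11 H4 genes, and in 41.1% of the 27025 genes of the table. GGTCCG, part of the H4 element known as site II and bound by the factor HINFP, was found in 10 of 11 H4 genes, in 1 H2B and in 1 H3 gene, against 9.44% of all genes. AAACACA, the H1 box, was in 5 of 6 H1 genes, in 1 H2A and in 1 H2B gene (8.22% of all genes). The octamer ATTTGCAT, the site of the POU factor OCT1, was in 6 of 14 H2B and 5 of 16 H2A genes (1.97% of all genes). TATAAA was in 32 of the 57 (15.7% of all genes), with at least 4 members in each family. None of the motifs searched contains another, and a match is a description of sequence, not of binding. In 9 cases an H2A and an H2B gene stood back to back on opposite strands with overlapping upstream stretches. Of these, 7 were in the first chromosome 13 run and 2 in the second. A single peak there could cover both promoters. A single motif match there could also count for both genes, so the H2A and H2B counts are not independent between these 18 genes.

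Chamber peaks outnumbered AVC peaks in each of the 3 windows. There were 20 AVC and 42 chamber peaks in the first Hist1 window, an AVC share of 32.3% (20.9 to 45.3). The second Hist1 window held 44 and 88, a share of 33.3% (25.4 to 42.1). The Hist2 window held 15 and 28, a share of 34.9% (21.01 to 50.9). Over all windows the share was 33.3% (27.4 to 39.7), while AVC peaks made up 56.6% of all peaks, 59.2% of those on chromosome 13 and 58.3% of those on chromosome 3. The AVC list was thus the longer one, and the balance in the windows was the reverse. Among all windows of 500 kb on the same grid with at least 50 peaks, 15 of 1011 (1.48%) had an AVC share as low as that of the second Hist1 window. For the first Hist1 window the count was 17 of 1243 windows of 400 kb with at least 40 peaks (1.37%), and for the Hist2 window 54 of 1113 of 200 kb with at least 30 peaks (4.85%). Each count includes the histone window itself. Because the windows were proposed with these peak counts in view, the ranks are descriptions and not tests.

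**Figure D1:**
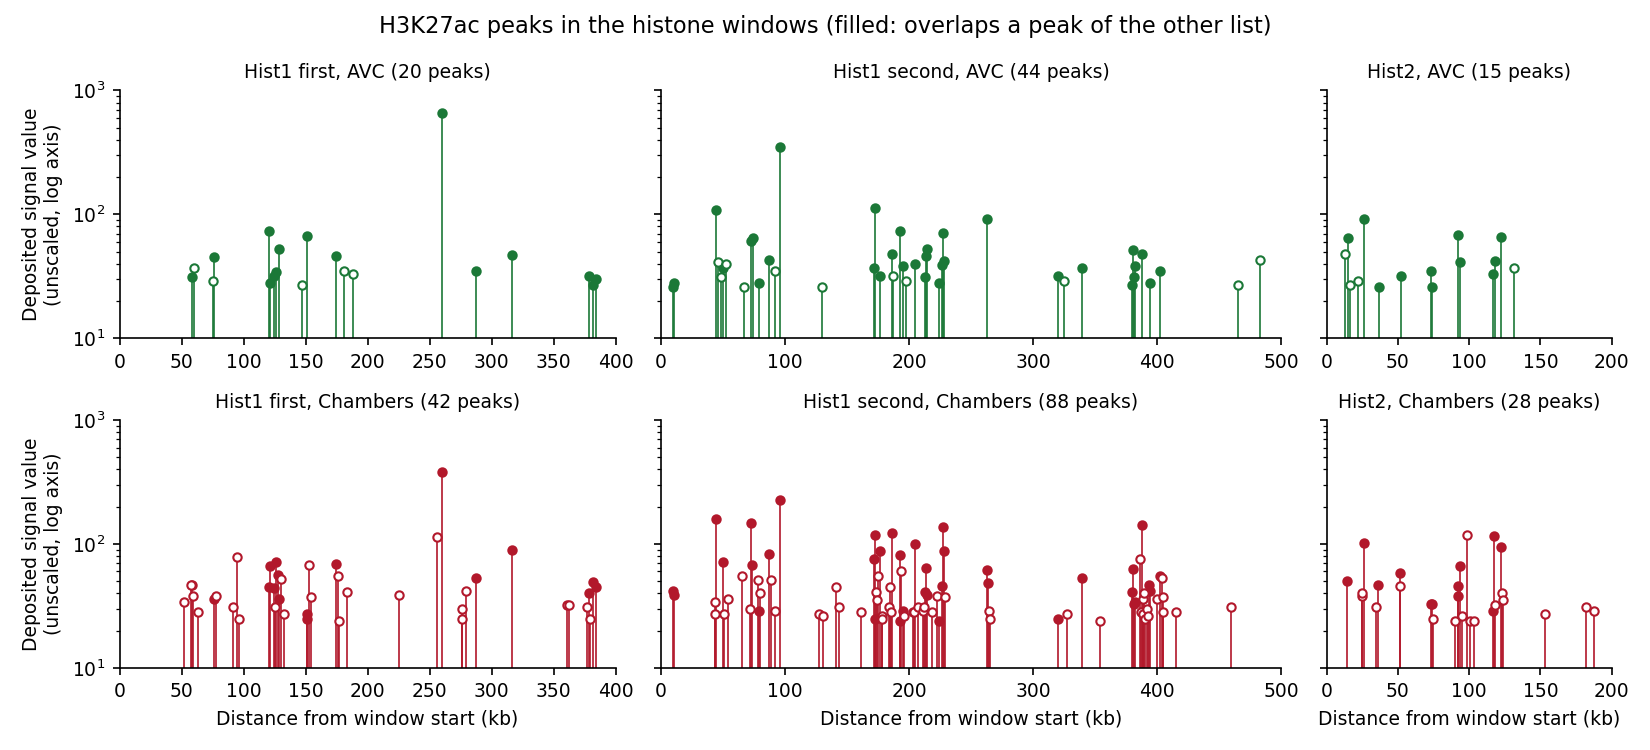
Deposited signal value (log axis, unscaled between lists) of each AVC peak (upper row, green) and chamber peak (lower row, red) against the distance of its midpoint from the window start in kb. Filled points overlap a peak of the other list and open points do not; the AVC rows hold 20, 44 and 15 peaks and the chamber rows 42, 88 and 28.

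The excess ran through every 100 kb bin. In the first Hist1 window the 4 bins held 4, 10, 2 and 4 AVC peaks against 10, 17, 7 and 8 chamber peaks. In the second Hist1 window the 5 bins held 14, 9, 9, 9 and 3 AVC peaks against 19, 23, 20, 20 and 6. The Hist2 window held 11 and 4 against 17 and 11. All 11 bins thus had more chamber than AVC peaks, with AVC shares from 22.2% (2 of 9 peaks) to 42.4% (14 of 33). Among the 5994 bins of the genome with at least 9 peaks, the number in the poorest histone bin, 36.8% had more chamber than AVC peaks.

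**Figure D2:**
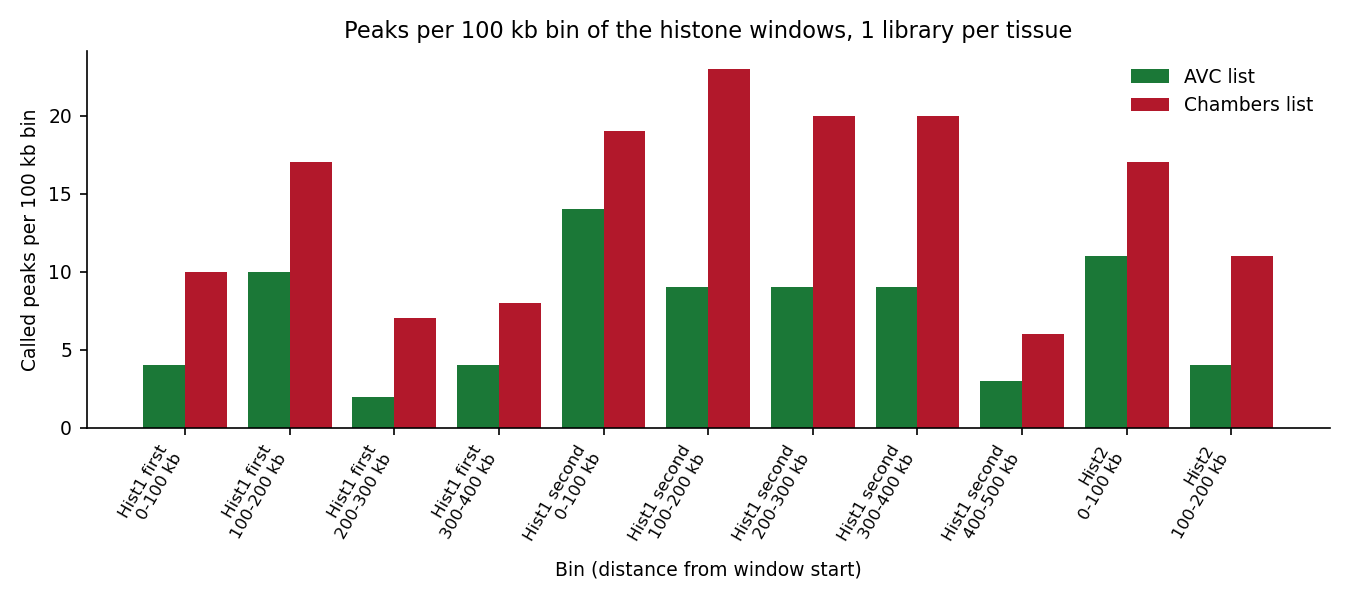
Number of called peaks in each of the 11 bins of 100 kb, AVC in green and chambers in red, ordered by window and distance from its start. The chamber bar is the taller one in every bin. The pair furthest apart in proportion is 7 chamber against 2 AVC peaks, and the nearest pair is 19 against 14.

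Single bins rarely reached a call. A bin with at least 20 peaks was called chamber-rich or AVC-rich when the interval of its AVC share lay below or above the pooled share of such bins, 50.1%. Of the 6 histone bins with 20 peaks, 1 was chamber-rich, from 23.55 to 23.65 Mb in the second Hist1 window, with 9 AVC and 23 chamber peaks (28.1%, 13.7 to 46.7). In the genome 2.95% of 1320 bins were chamber-rich. None of the 6 was AVC-rich, against 5.38% of the 1320. The neighbouring bins from 23.65 and 23.75 Mb, each with 9 AVC and 20 chamber peaks, just missed the call (31.0%, 15.3 to 50.8). The histone bins were rich in strong peaks: 5 of the 6 held at least 10 peaks with a deposited score, the caller's Log(ER), of 5 or more, and bins of that kind had a pooled AVC share of 47.1% (157 bins), against 54.9% in bins with at most 2 such peaks (344 bins).

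**Figure D3:**
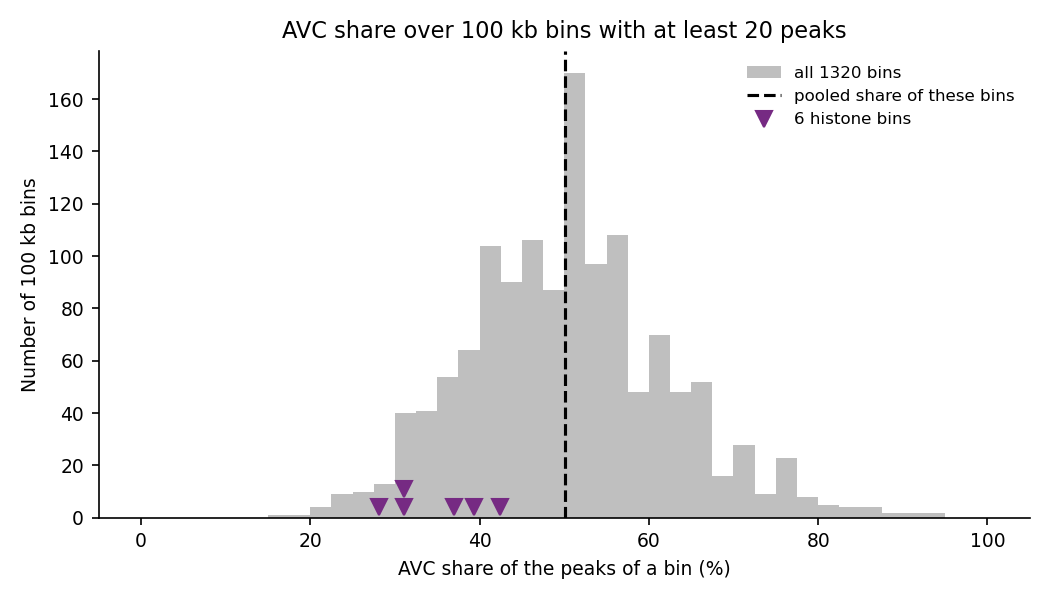
Histogram of the AVC share (%) over the 1320 bins of 100 kb with at least 20 peaks, with the pooled share of 50.1% as a dashed line and the 6 histone bins as triangles. The triangles lie between 28.1% and 42.4%, all left of the line, inside the range of the other bins.

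In the windows 18 AVC peaks (22.8%, 14.1 to 33.6) and 60 chamber peaks (38.0%, 30.4 to 46.0) had a score of 5 or more, against 9.95% of the whole AVC list and 18.1% of the whole chamber list. The AVC share among them was 23.1% (14.3 to 34.0), and 41.8% over all peaks of that score. Both shares were thus lower than those without a score limit, 33.3% and 56.6%, in the windows and in the whole lists alike. Scores of at least 10 belonged to 6 AVC and 22 chamber peaks. Peaks of the windows stood high in their own lists, with a median percentile of signal value, ranked within list and chromosome, of 73.8 for AVC and 74.1 for chamber peaks. The signal value is a whole number per peak that the file headers do not name and that is not scaled between the lists. Widths differed less between the tissues here than elsewhere: the median was 446 bp for AVC and 387.5 bp for chamber peaks in the windows, and 472 and 325 bp in the whole lists.

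AVC peaks in the windows lay mostly where the chambers also had one. Of the 79 AVC peaks, 59 overlapped a chamber peak by at least 1 bp (74.7%, 63.6 to 83.8), against 23.2% of all AVC peaks. Of the 158 chamber peaks, 66 overlapped an AVC peak (41.8%, 34.0 to 49.9), against 31.6% of all chamber peaks. The AVC shares were alike in the windows, at 15 of 20, 33 of 44 and 11 of 15. Weak AVC peaks took part in this. With scores from 2 to 3, 21 of 33 were shared (63.6%, 45.1 to 79.6), against 13.5% of such peaks in the list, while all 18 with a score of 5 or more were shared (interval from 81.5%), against 75.4% in the list. At scores of 10 or more, the 6 of 6 shared AVC peaks were near the level of the list, 98.1%. Chamber peaks were near their list's percentages in each score class, for example 9 of 49 (18.4%) against 18.5% at scores from 2 to 3, and 18 of 22 (81.8%, 59.7 to 94.8) against 92.1% at 10 or more. Chamber peaks covered 68.1 kb of the 1.1 Mb and AVC peaks 39.3 kb, against 23581.7 and 42389.7 kb over the whole lists. The denser the peaks of the other list, the more likely an overlap, and the windows were proposed with the peak counts in view. The high shared percentages of AVC peaks are therefore not evidence separate from the chamber excess. How far peak density accounts for them was not tested. Some flanks, described below, also had AVC sharing above the list's level, so such sharing is not particular to the windows.

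**Figure D4:**
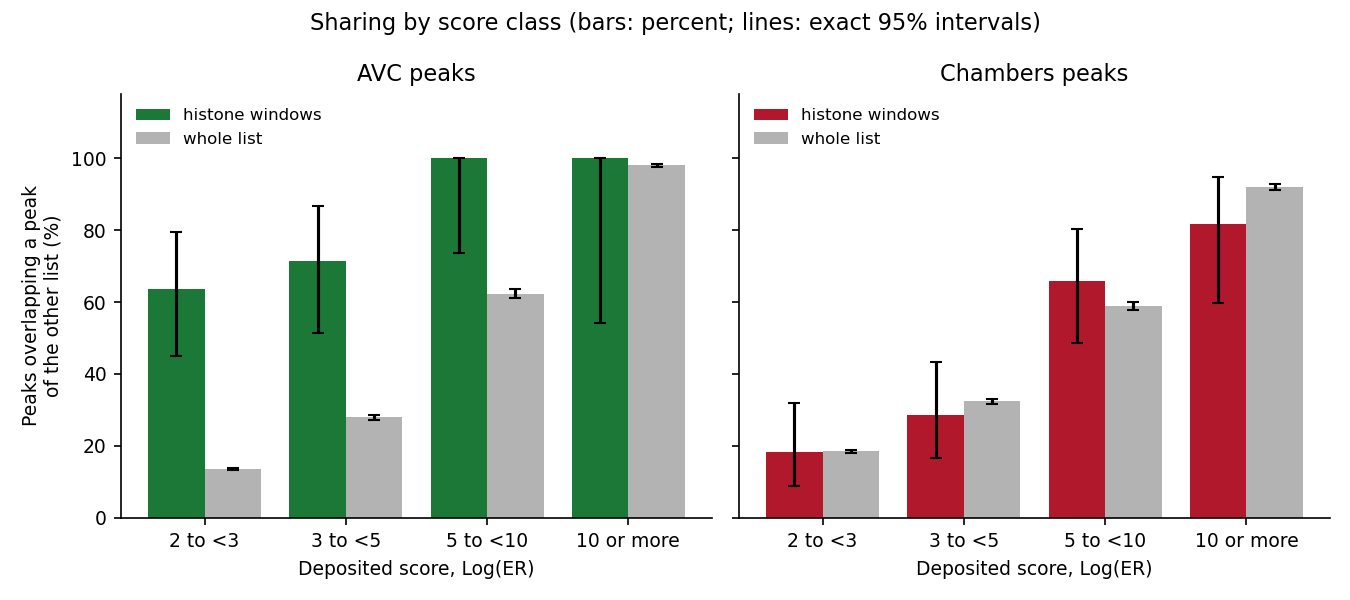
Percentage of peaks that overlap a peak of the other list by deposited score class, for histone window peaks (coloured) and the whole list (grey), with exact 95% intervals as lines; AVC on the left, chambers on the right. AVC peaks of the windows stand at 63.6% against 13.5% in the lowest class, and chamber peaks at 18.4% against 18.5%.

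Where both tissues had a peak, the chamber value was mostly the higher one. Overlapping peaks of both lists were joined into 168 loci, of which 56 were shared (33.3%), 20 were AVC-only (11.9%) and 92 were chamber-only (54.8%). Of the 132340 loci of the genome, 14.5% were shared, 50.8% were AVC-only and 34.7% were chamber-only. At 42 of the 56 shared loci the highest AVC signal value was below the chamber value, against 39.4% of the 19226 shared loci of the genome. The median AVC-to-chamber ratio was 0.723 (quartiles 0.552 and 0.989), and 1.10 over the genome, 1.08 on chromosomes 13 and 3 each. By window it was 0.667 over 15 loci, 0.737 over 30 and 0.788 over 11. Since the values are unscaled, a ratio is read against the genome's and not against 1. The windows were proposed from the contrast of these lists, so the lower ratio in them is not independent evidence either. The centres of the highest peaks of a locus lay a median of 95.5 bp apart.

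**Figure D5:**
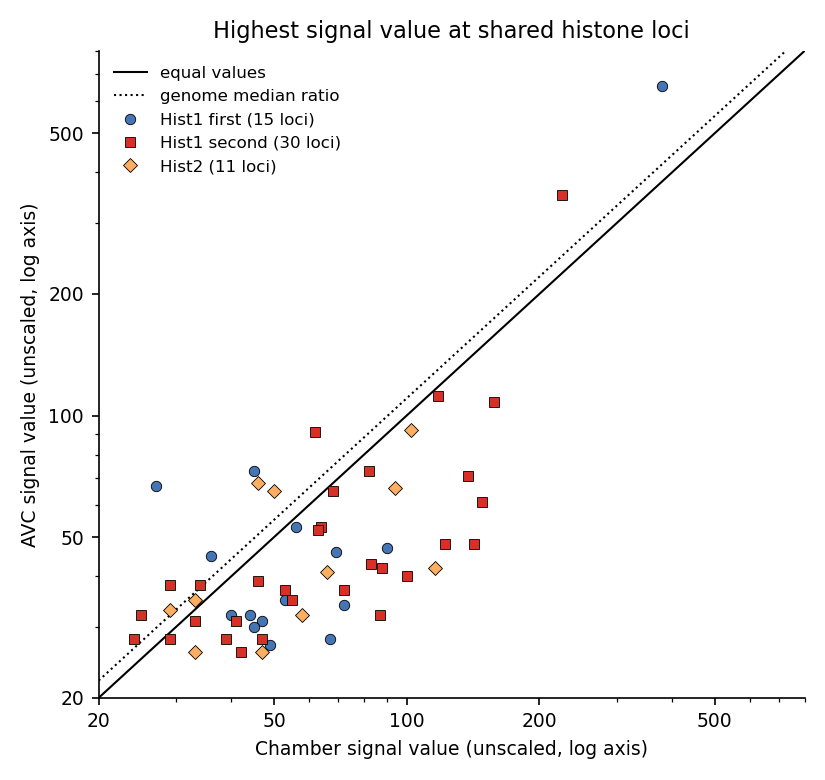
Highest AVC signal value against highest chamber signal value (both axes logarithmic, unscaled) at the 56 loci called in both lists, by window, with the line of equal values (solid) and the genome's median ratio of 1.10 (dotted). Most points lie below both lines, and the highest points, 653 against 379 and 352 against 225, lie above them.

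The loci with the lowest ratios were strong chamber peaks beside modest AVC peaks. At 23837380 to 23838089 in the second Hist1 window the AVC value was 48 and the chamber value 142, a ratio of 0.338. At 96067075 to 96068119 in the Hist2 window the values were 42 and 116 (0.362). The loci at 23626127 to 23626887 (32 and 87), 23635561 to 23636317 (48 and 122), 23654456 to 23655376 (40 and 100) and 23522151 to 23523118 (61 and 148) had ratios from 0.368 to 0.412. In the first Hist1 window the lowest was 28 and 67, at 21871288 to 21872105 (0.418). These loci were picked as the lowest, and the share of the genome's shared loci with ratios as low is not given.

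A minority of loci went the other way. The highest ratio was at 21900748 to 21901667 in the first Hist1 window, where a 920 bp AVC peak of value 67 met chamber peaks of at most 27 (2.48). At 21870338 to 21871188 the values were 73 and 45 (1.62), at 96041521 to 96042478 in the Hist2 window 68 and 46 (1.48), and at 23712104 to 23713659 in the second Hist1 window 91 and 62 (1.47). Both of the highest values of the windows were also higher in the AVC: 653 and 379 at 22009763 to 22009937, and 352 and 225 at 23545648 to 23546058, with ratios of 1.72 and 1.56. The peaks were narrow at the first, 95 (AVC) and 175 bp (chambers), and 372 and 311 bp wide at the second. Scores were 23.93 and 25.64 at the first and 21.98 and 23.25 at the second. Without the 3 loci that scored 20 or more in either list, both of these loci among them, the median ratio was 0.718 over 53 loci.

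The 5 AVC peaks of highest score in the second Hist1 window had values of 352, 112, 108, 91 and 73, and the 5 chamber peaks 225, 158, 148, 142 and 138. After the peak at 23545687, the AVC peaks lay at 23622262 to 23623032, 23493822 to 23494947, 23712525 to 23713629 and 23642470 to 23643246, between 771 and 1126 bp wide. The chamber peaks after the same locus lay at 23493794 to 23494735, 23522151 to 23523023, 23837380 to 23838081 and 23676941 to 23677406. Both lists thus placed 1 strong peak near 23.49 Mb and otherwise ranked different loci highest, although each of these loci had a peak in both tissues.

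In the first Hist1 window the leading AVC values after 653 were 73, 67, 53 and 47, and the leading chamber values after 379 were 114, 90, 78 and 72. The chamber peaks of 114 and 78, at 22005491 to 22006551 (1061 bp) and 21844367 to 21845265 (899 bp), had no AVC peak over them. The chamber peak of 90, at 22066222 to 22066816, lay over the AVC peak of 47. In the Hist2 window the leading AVC values were 92, 68, 66, 65 and 48 and the chamber values 119, 116, 102, 94 and 66. The highest AVC peak there, at 95975489 to 95976386, overlapped the chamber peak of 102 at 95975690 to 95976373.

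The 92 chamber-only peaks had signal values from 24 to 119 (median 31), 17 with a score of 5 or more (18.5%, 11.1 to 27.9) and 4 with 10 or more. Over the whole chamber list, 7.72% of the unshared peaks had a score of 5 or more. Such scores were also more frequent among all chamber peaks of the windows, 38.0% against 18.1% in the list. Of the 60 chamber peaks with such scores, 43 were shared (71.7%, 58.6 to 82.5), near the 70.8% of the list. The 20 AVC-only peaks had values from 26 to 48 (median 31.5), and 0 of 20 reached a score of 5 (interval up to 16.8%). In the whole AVC list 3.18% of the unshared peaks did, so 0 of 20 was near the level of that list. The strongest chamber-only peaks lay at 96048271 to 96049231 in the Hist2 window (value 119, score 17.73, nearest AVC peak 4.54 kb away) and at the 2 loci of the first Hist1 window named above (scores 16.41 and 10.91, 3.22 and 17.7 kb away). The strongest AVC-only peaks lay at 95962865 to 95963443 in the Hist2 window (48, score 4.92), 23932711 to 23933551 (43, 4.06) and 23495650 to 23496399 (41, 3.80) in the second Hist1 window. A peak of the other list lay within 1 kb of 37 of the 92 and 7 of the 20. That nearby peak was not always part of a shared locus. No value for the whole lists is given, so these counts are not read as particular to the windows.

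Peaks of both lists gathered in short stretches. Joining loci of either list at most 5 kb apart gave 45 stretches, 12 without an AVC peak (26.7%, against 23.4% of 72714 stretches in the genome) and 3 without a chamber peak (6.67%, against 46.9%). Of the 19 stretches with at least 5 peaks, all 19 had more chamber than AVC peaks, as did 48.9% of the 5872 such stretches of the genome. The windows had been chosen on these counts. The longest, from 23653081 to 23679037, spanned 26.0 kb with 8 AVC and 16 chamber peaks at 15 loci, 7 of them shared. The next by peak number, from 23829598 to 23844220, held 6 and 15. A further stretch of the second Hist1 window, from 23621724 to 23628566, held 3 and 9. In the Hist2 window the fullest, from 96039834 to 96053370, held 2 and 8. Between them lay stretches with no peak of either list, such as 54.8 kb from 23715506 in the second Hist1 window, 51.9 kb at the start of the first, and 28.9 kb from 96103273 in the Hist2 window.

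The chromosome between the Hist1 windows showed the opposite balance. Its 1.3 Mb, which in the GRCm38 gene order hold the Vmn1r vomeronasal receptor genes between the histone runs, contained 43 AVC and 13 chamber peaks, an AVC share of 76.8% (63.6 to 87.0). Of these, 1 AVC peak overlapped a chamber peak, and 1 AVC and no chamber peak had a score of 5 or more. The median values were 30 and 26, near the lowest values called on the chromosome (26 and 24). The 500 kb below the first Hist1 window held 13 AVC and 25 chamber peaks (34.2%, 19.6 to 51.4), and the 500 kb above the second held 22 and 11 (66.7%, 48.2 to 82.0). Around Hist2 the 500 kb below held 65 and 77 (45.8%, 37.4 to 54.3) and the 500 kb above 20 and 35 (36.4%, 23.8 to 50.4). The flanks below the first Hist1 window and above Hist2 thus had AVC shares close to those of the windows, and the balance was not tested against theirs. AVC peaks overlapped a chamber peak in 53.8% below the first Hist1 window, 55.4% below Hist2 and 45% above Hist2. Above the second Hist1 window the percentage was 4.55%. For chamber peaks the percentages were 28%, 48.1%, 28.6% and 9.09% in the same order.

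The window borders cut no peak. The chamber peaks nearest to the lower border of the first Hist1 window lay 33.8 kb outside it (value 24) and 52.1 kb inside it (34). At the Hist2 window the peaks just below lay 15.8 kb (AVC, 26) and 16.0 kb (chambers, 25) outside, and those just inside had values of 48 and 50.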

How the data were processed

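H3K27ac ChIP-seq peak lists of 2 libraries were used, 1 per tissue. Per the submitters' processing notes, Bowtie, SAMtools and mm9 were used, without versions or roles. Per the file headers, peaks were called per library with OccuPeak 1.3, chromosome by chromosome, keeping Log(ER) above 2, with reads of 50 bases and fragments modelled at 60.5 (AVC) or 68 (chambers) bases. The authors deposited a whole-number signal value, not named in the headers and unscaled between lists, and a score (Log(ER) of the caller, base not given). Scores are set within each chromosome. Depth and any input library are not given in the sources used here.

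Starts were converted to 1-based. Peaks were placed by midpoint, overlaps needed 1 bp and were checked against bedtools 2.31.1, and the overlap and bin counts were tested on simulated data. Bins of 100 kb followed the windows' grid, offset by 50 kb. Exact 95% intervals treat peaks as independent, which neighbouring peaks are not. Peaks named are the 5 of highest score per window and list and the 3 of highest score per list without overlap; loci, bins and stretches named beside them were chosen after their values were seen. The members and gene lists were chosen with earlier results of these data known. Promoter sequences and gene order came from RefSeq (GRCm38.p6), and no coordinates were converted. A planned list of histone mRNA factors and the tissue markers were not placed for want of mm9 positions. Tables were made with pandas 2.3.3 and numpy 2.4.6 under Python 3.11.15, intervals with scipy 1.17.1 and figures with matplotlib 3.10.9.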

Additional observations from a re-analysis of the deposited data

How the results depend on the processing

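The AVC share of the histone peaks stayed within the interval of its main value under all 5 alternatives run for it. It ran from 27.6% with the 20000 strongest peaks of each list to 36.7% with peaks of at least 300 bp. With equal peak numbers it was 30.4%. Counting peaks with any base in a window could not change it, because the borders cut no peak. With the 20000 strongest peaks or equal numbers, both lists are equally long by construction. Values of the whole lists under these settings are not given. The shared percentage of AVC peaks stayed there except with the 20000 strongest peaks (85.3%), and that of chamber peaks except when any peak of the other list up to 1 kb away was enough (65.2%), which loosens the overlap. The 1 chamber-rich bin of 6 became 0 of 3 at scores of at least 3 (0.913% of such bins in the genome). It became 2 of 5 with peaks of at least 300 bp (3.40%) and 2 of 6 with bins shifted by 50 kb (3.60%). Shifted bins at the window edges lay partly outside the windows. The count was 3 of 6 with the AVC share of all peaks as baseline (12.05%) and 3 of 9 with a minimum of 10 peaks (2.86%). The cause of these changes was not tested. No histone bin was AVC-rich under the 8 alternatives run for it, where 2.20% to 7.76% of the genome's bins were; with 3 to 12 histone bins, 0 is near that background. The median signal ratio ran from 0.684 to 0.718 under its 3 alternatives, against 1.07 to 1.12 over the genome. These 3 and the 20000 strongest peaks were chosen after seeing the data. No paired analysis was possible because each tissue has 1 library. The unknown depth limits what a missing peak shows: a peak not called is not an absence of acetylation.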
